A study of Mus musculus with 18 samples.

Results

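The genes for the proteins of the core spliceosomal small nuclear ribonucleoproteins (snRNPs) were taken from a table of ribose oxidation sequencing (RibOxi-seq) counts by their symbols, which begin with Snrp, Snrnp, Lsm and a digit, Prpf and a digit, or Sf3a or Sf3b and a digit. This gave 54 of the 19736 genes in the table. In RibOxi-seq, RNA fragments are oxidized and the 3′ ends left intact, as at 2′-O-methylated nucleotides, are ligated and counted. The cells were mouse 4T1 mammary carcinoma cells. All groups carried a lentiviral construct for mCherry and Renilla luciferase (mCh/rLuc). The 3 oxidized libraries of 4T1 WT were set against 3 of Snord67KO-1 and 3 of Snord67KO-2, which each lack the box C/D small nucleolar RNA (snoRNA) Snord67. Each knockout line is 1 single-cell clone, made with pairs of Cas9 and guide RNA constructs, so an effect of the knockout and a trait of a clone cannot be told apart within either line. Libraries made without oxidation were not analysed here, and in the oxidized counts RNA level and end protection cannot be told apart.

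A spliceosome is built from snRNPs, each made of a small nuclear RNA and its proteins. The U1 snRNP reads the 5′ splice site, the U2 snRNP with its SF3 proteins holds the branch point, and the tri-snRNP of U4, U6 and U5 joins before catalysis. A ring of Sm proteins wraps most of these RNAs, and a ring of Lsm proteins wraps U6, the RNA that Snord67 is known to modify. Prpf8 and Snrnp200, parts of U5, set the active site and unwind U4 from U6.

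Total counts per library were 625093 to 737219 in 4T1 WT, 491836 to 686776 in Snord67KO-1 and 212463 to 423278 in Snord67KO-2. A column of the table marks some positions as mispriming, a term that the methods do not define. Gene totals are the counts at the other, unmarked positions, given as CPM, the count divided by the total count of the library on a per-million scale. Marked positions held 17.8% of all counts in 4T1 WT replicate 2 and 1.38% to 7.22% in the other 8 libraries. A gene with 0 counts could still have had up to 3 counts, or 4.07 CPM in the deepest library and 14.1 CPM in the shallowest. Such limits cover counting error only, since the methods describe no removal of copies made by PCR. No unmarked count fell in Snord67 itself in any library, WT included, so the table does not check the knockout. The epithelial markers Epcam, Krt7, Krt8, Krt18 and Cdh1 were all detected and summed to 334 to 529 CPM in 4T1 WT, 877 to 947 CPM in Snord67KO-1 and 654 to 791 CPM in Snord67KO-2. The 7 detected markers of immune, endothelial and stromal cells summed to 9.39 to 10.9 CPM, 17.5 to 69.8 CPM and 0 to 11.8 CPM in the same order. The part of either marker list in the results was not tested.

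The 54 genes held 7717 unmarked counts, from 5 in Lsm10 to 654 in Sf3b1 (median 106.0 counts per gene). Together they came to 1665 ± 199.7 CPM (SD, n = 3) in 4T1 WT, 1547 ± 114 CPM in Snord67KO-1 and 1451 ± 132 CPM in Snord67KO-2. The libraries ran from 1435 to 1788 CPM in 4T1 WT, from 1423 to 1648 CPM in Snord67KO-1 and from 1370 to 1604 CPM in Snord67KO-2, so the 3 ranges overlapped. Of these counts, 86.0% to 92.9% per library lay in annotated exons. In bulk samples, fewer cells of a type and less RNA per cell cannot be told apart.

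**Figure D1:**
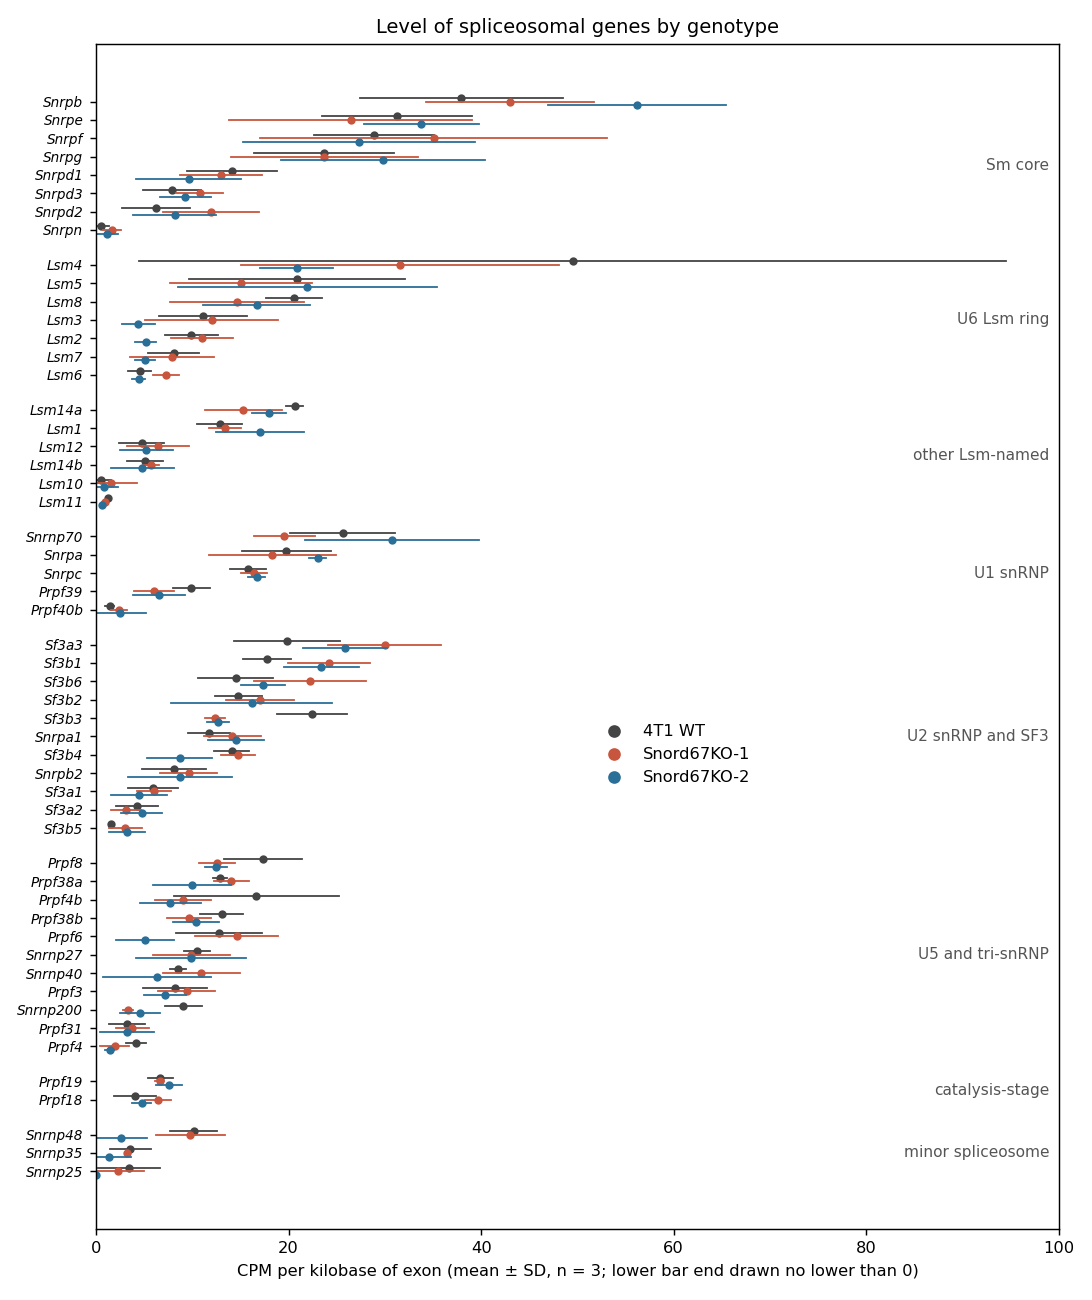
Level of the snRNP protein genes in CPM per kilobase of exon (x axis), as mean ± SD of 3 oxidized libraries in 4T1 WT (grey), Snord67KO-1 (red) and Snord67KO-2 (blue), grouped by role. Snrpb is the highest at 45.7 CPM per kilobase over the 3 genotypes, and Lsm11 is the lowest at 0.925.

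Per kilobase of exon in their protein-coding transcripts, the Sm genes Snrpb, Snrpe, Snrpf and Snrpg were at ranks 1, 3, 4 and 5. Snrpb, which encodes the Sm B proteins, reached 38.0 ± 10.5 CPM per kilobase in 4T1 WT, while Snord67KO-1 had 43.0 ± 8.75 and Snord67KO-2 56.2 ± 9.21 (SD, n = 3). Lsm4 of the U6 ring was at rank 2, but its 4T1 WT value of 49.5 ± 45.0 CPM per kilobase had an SD almost as large as its mean. In both genes 1 unmarked position held many of the counts, and without it the means over the genotypes were 32.7 CPM per kilobase for Snrpb, where that position is intronic in the principal transcript, and 16.9 for Lsm4. The lowest were Lsm11 and Lsm10, which belong to the U7 snRNP of histone pre-mRNA processing, and Snrpn, the Sm N gene. Snrpn had 12 counts, none of them in an annotated exon. Its coding sequence is close to that of Snrpb, and whether reads of the 2 genes were told apart was not tested. Neighbours in this order mostly lay within their SDs, as the plot of levels by genotype shows.

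Of the 54 genes, 39 had at least 10 counts in at least 3 libraries and were tested with edgeR's quasi-likelihood test among 5748 genes. The other 15 had 5 to 62 counts and did not enter this test. For the average of both clones minus 4T1 WT, 5 of the 39 fell and 0 rose at an adjusted p under 0.05, where 12% of all tested genes were called, 5.39% as lower and 6.61% as higher. The 5 were Snrnp200, Prpf8, Prpf4, Prpf4b and Sf3b3. In the same contrast, 10 of the 39 had an unadjusted p under 0.05, all with lower values. Of all tested genes 26.8% had one in either direction, 751 of 5748 with lower and 791 with higher values. The median log2 fold change of the 39 genes was -0.12, and that of all tested genes was -0.03. In Snord67KO-1 7 of the 39 fell, the same 5 with Prpf39 and Lsm14a, and 0 rose (all genes 20.2% called, 8.65% as lower and 11.6% as higher). In Snord67KO-2 only Sf3b3 fell and 0 rose (all genes 3.98% called, 0.922% as lower and 3.06% as higher). Both clones were compared with the same 4T1 WT libraries, so these are not separate tests. No member rose in any of these 3 contrasts. Higher values at an unadjusted p under 0.05 were found for 0, 0 and 1 members, against 791, 991 and 589 of all 5748 tested genes. DESeq2 called 3 lower for the average (Prpf4b, Sf3b3 and Snrnp200), the same 3 in Snord67KO-1 and 0 in Snord67KO-2.

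**Figure D2:**
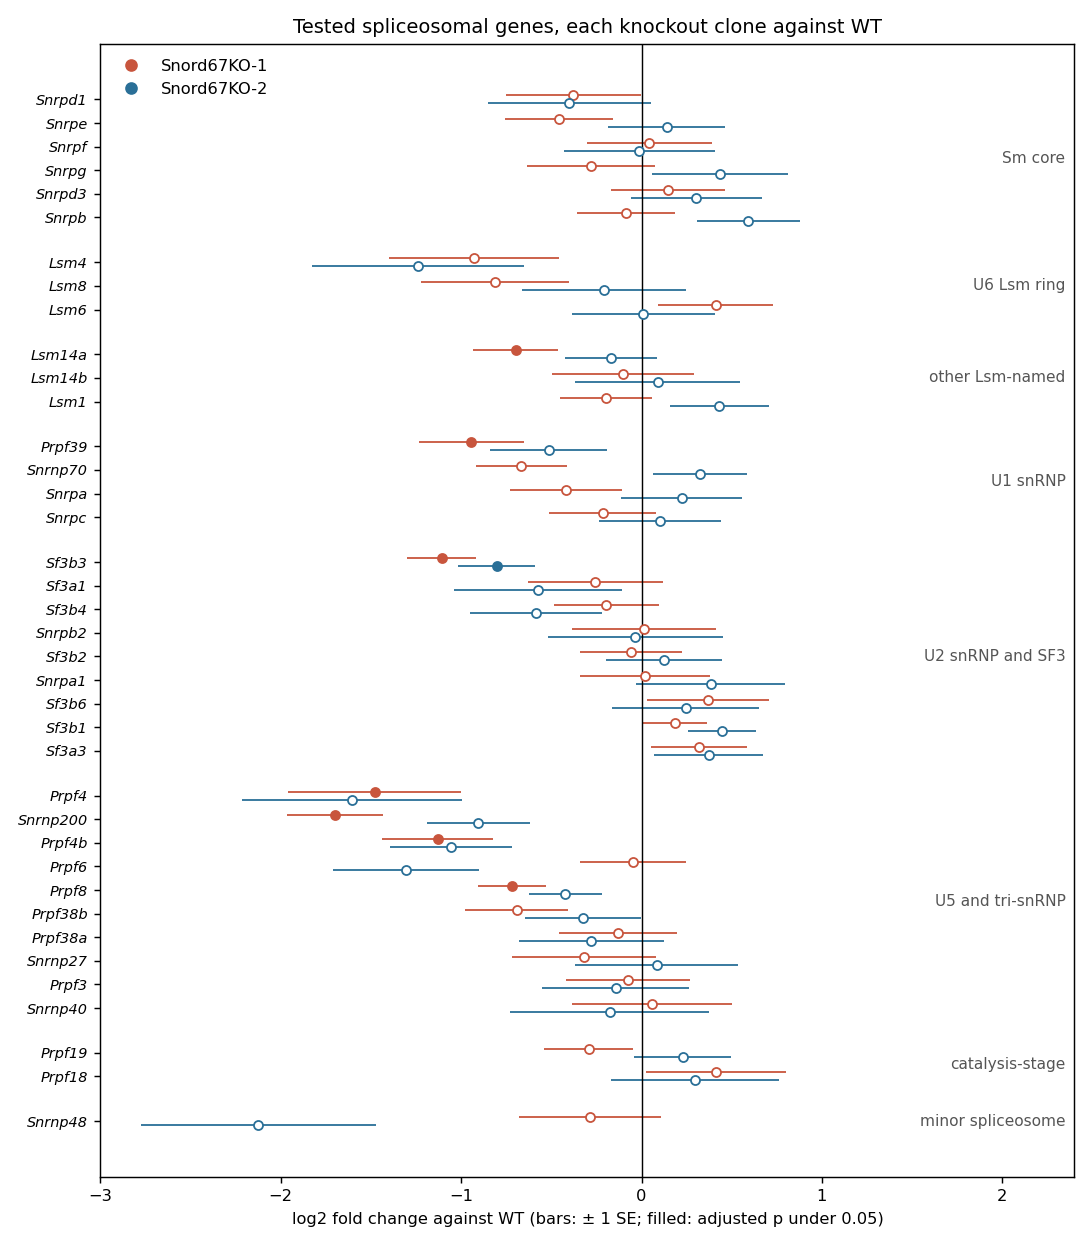
The log2 fold change against 4T1 WT (x axis, bars ± 1 SE) of the tested snRNP protein genes, grouped by role and ordered within a role by the average of both clones. Filled points passed an adjusted p of 0.05 in edgeR's quasi-likelihood test: 7 genes in Snord67KO-1 (red) and Sf3b3 in Snord67KO-2 (blue), all to the left of 0.

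The U5 and tri-snRNP genes held 4 of the 5 called genes. All 10 tested members of this group of 11 had a log2 fold change below 0 for the average of both clones, with a median of -0.54, and 4 passed the threshold. The medians were -0.50 in Snord67KO-1 (4 called) and -0.37 in Snord67KO-2 (0 called by edgeR's quasi-likelihood test or DESeq2). In Snord67KO-2, 5 had an unadjusted p under 0.05 in edgeR's test, all with lower values. Of all tested genes 18.2% had one in either direction, 456 of 5748 with lower values. Summed over the group, the libraries held 397 to 592 CPM in 4T1 WT, 328 to 417 CPM in Snord67KO-1 and 264 to 371 CPM in Snord67KO-2. One library of Snord67KO-1 lay above the lowest of 4T1 WT, and the Snord67KO-2 libraries lay below all of them.

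Snrnp200 (chr2:127208386-127240451, plus strand) encodes Brr2, the helicase that separates U4 from U6. It had 73.2, 62.6 and 48.0 CPM in the 4T1 WT libraries, 26.7, 20.3 and 20.4 CPM in Snord67KO-1 and 23.5, 21.7 and 47.3 CPM in Snord67KO-2. All 6 knockout libraries lay below all 3 WT libraries, though 1 library of Snord67KO-2 came within 1 CPM of the lowest WT value. The log2 fold change was -1.30 ± 0.23 (SE) for the average of both clones (adjusted p = 0.000787), -1.70 ± 0.27 in Snord67KO-1 (adjusted p = 0.000183) and -0.91 ± 0.29 in Snord67KO-2 (adjusted p = 0.0817). The direct comparison of the clones gave a difference of 0.79 ± 0.33 with an adjusted p of 0.167. Its 199 counts were spread thinly, with at most 3 at any position.

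Prpf8 (chr11:75486816-75509449, plus strand) encodes the scaffold protein at the centre of the U5 snRNP. It had 142, 150.3 and 94.4 CPM in 4T1 WT, 108, 81.3 and 90.3 CPM in Snord67KO-1 and 84.7, 92.2 and 102 CPM in Snord67KO-2. The third WT library lay inside the range of the knockout libraries and the other two lay above it. Its log2 fold change was -0.57 ± 0.16 (SE) for the average (adjusted p = 0.0273), -0.72 ± 0.19 in Snord67KO-1 (adjusted p = 0.0100) and -0.42 ± 0.20 in Snord67KO-2 (adjusted p = 0.273). The call for the average was kept in 8 of 17 alternative settings, with an adjusted p between 0.00467 and 0.144.

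Prpf4 (chr4:62408797-62426990, plus strand) encodes a protein of the U4 and U6 part of the tri-snRNP. It had 25.8, 15.7 and 24.0 CPM in 4T1 WT, 8.91, 18.3 and 2.91 CPM in Snord67KO-1 and 9.41, 8.14 and 4.73 CPM in Snord67KO-2. All Snord67KO-2 libraries and 2 of the Snord67KO-1 libraries lay below the WT libraries, at a depth of 68 counts in all. The fitted log2 fold change was the lowest of the 39 genes, at -1.54 ± 0.44 (SE) for the average (adjusted p = 0.0281), with -1.48 ± 0.48 in Snord67KO-1 (adjusted p = 0.0342) and -1.60 ± 0.61 in Snord67KO-2 (adjusted p = 0.157). Of the alternative settings in which Prpf4 had enough counts, 8 of 13 kept the call for the average (adjusted p 0.00420 to 0.102) and 9 of 14 that in Snord67KO-1 (adjusted p 0.00856 to 0.184).

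Prpf4b (chr13:34875302-34906064, plus strand) encodes a kinase that phosphorylates tri-snRNP proteins. It had 107, 207 and 78.4 CPM in 4T1 WT, 80.2, 87.4 and 45.1 CPM in Snord67KO-1 and 61.2, 35.3 and 85.1 CPM in Snord67KO-2. The fitted log2 fold change was -1.09 ± 0.27 (SE) for the average (adjusted p = 0.0102), -1.13 ± 0.31 in Snord67KO-1 (adjusted p = 0.0125) and -1.06 ± 0.34 in Snord67KO-2 (adjusted p = 0.0865). The groups overlapped, and 1 unmarked position held 254 of its 450 counts (56.4%), 99 of them in 4T1 WT replicate 2. Without that library the call for the average was lost, and so it was when each position was counted once per library (adjusted p up to 0.0881 over these settings).

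Among the 6 members of this group that were tested and not called, Prpf6, which bridges the parts of the tri-snRNP, differed most between the clones and was singled out after its values were seen. It had 46.1, 50.1 and 24.0 CPM in 4T1 WT, 56.4, 30.5 and 51.0 CPM in Snord67KO-1 and 18.8, 5.42 and 23.6 CPM in Snord67KO-2. All 3 Snord67KO-2 libraries lay below the others, the highest by less than 1 CPM, with a log2 fold change against 4T1 WT of -1.31 ± 0.41 (SE, adjusted p = 0.0768) and of -0.05 ± 0.29 in Snord67KO-1 (adjusted p = 0.934). The difference between the clones was -1.26 ± 0.40 (adjusted p = 0.0677). It passed the threshold without TMM scaling, without 4T1 WT replicate 2 and with each position counted once per library, and Snord67KO-2 against 4T1 WT passed without a low count filter and without 4T1 WT replicate 3. Prpf6 shares its locus with Zfp512b and Samd10, so its reads may be split with theirs. The other 5, Prpf3, Prpf38a, Prpf38b, Snrnp27 and Snrnp40, had averages between -0.51 and -0.06, and Prpf31 had too few counts for the test.

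**Figure D3:**
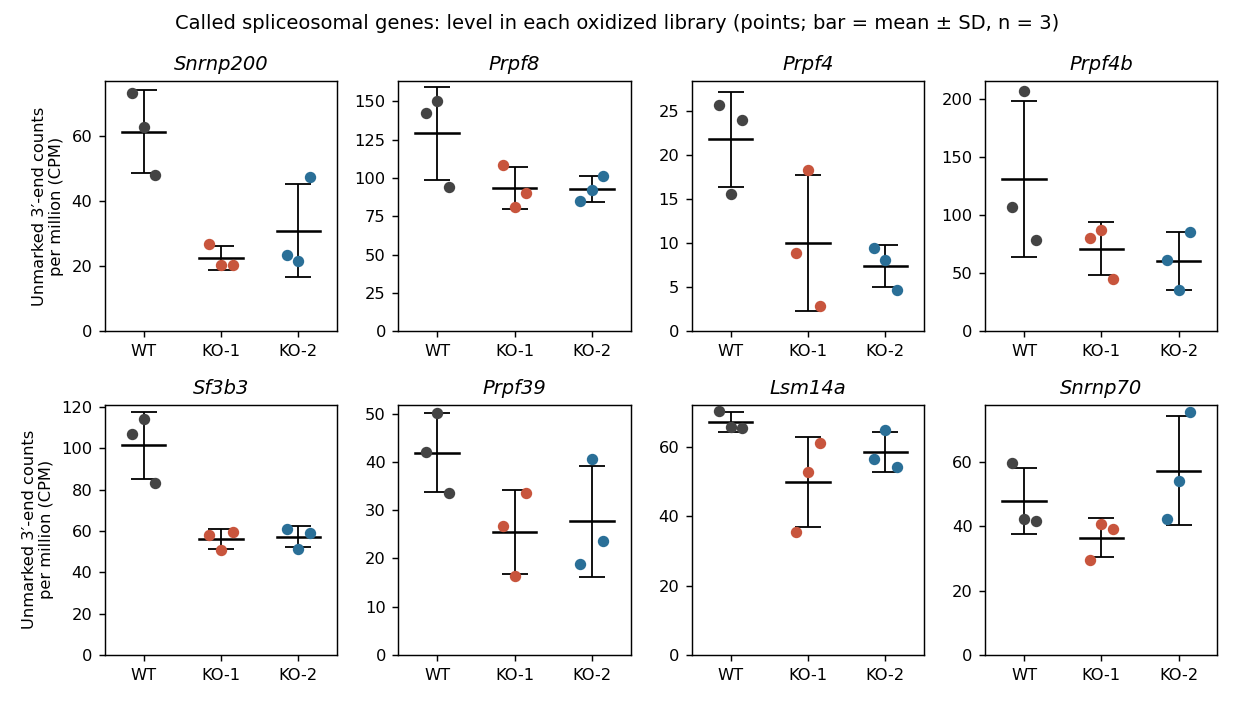
CPM of unmarked counts (y axis) in each oxidized library for the 8 genes called in any contrast, with points for libraries and bars for mean ± SD (n = 3). Snrnp200, Sf3b3 and Lsm14a are the genes in which all 6 knockout libraries lie below all 3 libraries of 4T1 WT.

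In the U2 group of 11, 9 genes were tested and only Sf3b3 passed the threshold. The median log2 fold change of the 9 for the average was 0.03. Sf3b3 (chr8:110810239-110846787, minus strand) encodes the beta-propeller protein of the SF3b complex, which also occurs outside the spliceosome. It had 107, 114 and 83.2 CPM in 4T1 WT, 57.9, 50.8 and 59.7 CPM in Snord67KO-1 and 61.2, 51.5 and 59.1 CPM in Snord67KO-2. Every knockout library lay below every WT library, and both clones lay at the same level within 1 SD. The log2 fold change was -0.96 ± 0.17 (SE) for the average (adjusted p = 0.000866), -1.11 ± 0.19 in Snord67KO-1 (adjusted p = 0.000461) and -0.80 ± 0.21 in Snord67KO-2 (adjusted p = 0.0369). The call in Snord67KO-2 was kept in 6 of 18 alternative settings (adjusted p 0.0343 to 0.178), and those for the average and Snord67KO-1 in all 17 and 18.

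Its partner Sf3b1, which contacts the branch point, gave higher values in the knockouts. It had 115, 122 and 92.8 CPM in 4T1 WT, 153, 122 and 175 CPM in Snord67KO-1 and 127, 136 and 172 CPM in Snord67KO-2. The ranges of 4T1 WT and Snord67KO-1 met at 122 CPM, and all Snord67KO-2 libraries lay above those of 4T1 WT. Fitted log2 fold changes were 0.32 ± 0.16 (SE) for the average (adjusted p = 0.210), 0.19 ± 0.18 in Snord67KO-1 (adjusted p = 0.499) and 0.45 ± 0.19 in Snord67KO-2 (adjusted p = 0.211). Sf3a3, a member of the SF3a complex, had 0.35 ± 0.25 for the average (adjusted p = 0.390), with 25.0 to 44.8 CPM in 4T1 WT, 48.1 to 66.8 CPM in Snord67KO-1 and 37.8 to 51.8 CPM in Snord67KO-2. Of its counts, 34.4% lay in annotated exons. No member of this group passed the threshold as higher, and Sf3b1 was the only one at an unadjusted p under 0.05, in Snord67KO-2.

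The U1 group had 5 of 6 members tested, and all 5 had a log2 fold change below 0 for the average (median -0.15, 0 called by edgeR or DESeq2, 1 with an unadjusted p below 0.05). Prpf39 (chr12:65036333-65063386, plus strand), a U1-associated protein that helps in 5′ splice site choice, fell in Snord67KO-1. It had 42.0, 50.1 and 33.6 CPM in 4T1 WT, 26.7, 16.3 and 33.5 CPM in Snord67KO-1 and 18.8, 40.7 and 23.6 CPM in Snord67KO-2. In the fit, Prpf39 had a log2 fold change of -0.94 ± 0.29 (SE) in Snord67KO-1 (adjusted p = 0.0257) and -0.52 ± 0.33 in Snord67KO-2 (adjusted p = 0.434). The highest Snord67KO-1 library lay just below the lowest WT library, and 11 of 18 alternative settings kept this call (adjusted p 0.0101 to 0.131). The gene overlaps Fkbp3, and the table gives no strand.

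Snrnp70 (chr7:45376453-45395742, minus strand), which binds the first stem loop of U1, was the only member called between the clones (all genes 6.38% called, 2.84% as higher in Snord67KO-2). It had 59.7, 42.3 and 41.6 CPM in 4T1 WT, 29.7, 40.7 and 39.3 CPM in Snord67KO-1 and 42.4, 54.2 and 75.6 CPM in Snord67KO-2. The clones did not overlap, and the WT libraries lay above those of Snord67KO-1 and overlapped those of Snord67KO-2. The log2 fold change of Snord67KO-2 minus Snord67KO-1 was 0.99 ± 0.27 (SE, adjusted p = 0.0340), and 11 of 18 alternative settings kept the call (adjusted p 0.0104 to 0.205). Without TMM scaling Snrnp70 was not called, and the only member called between the clones was Prpf6, as lower in Snord67KO-2. Against 4T1 WT the values were -0.67 ± 0.25 in Snord67KO-1 (adjusted p = 0.0693) and 0.33 ± 0.26 in Snord67KO-2 (adjusted p = 0.554).

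None of the 6 tested Sm genes was called in any contrast (0 by edgeR or DESeq2). At an unadjusted p under 0.05 there were 0 against 4T1 WT in any contrast and 1, Snrpb, between the clones. Their median log2 fold change for the average was 0.05, and the values ran from -0.39 in Snrpd1 to 0.25 in Snrpb. Snrpb had 33.9, 40.7 and 57.6 CPM in 4T1 WT, 38.6, 52.9 and 58.2 CPM in Snord67KO-1 and 65.9, 54.2 and 75.6 CPM in Snord67KO-2. Its log2 fold change was 0.59 ± 0.29 (SE) in Snord67KO-2 (adjusted p = 0.280) and -0.09 ± 0.27 in Snord67KO-1 (adjusted p = 0.860). In sum, the Sm genes held 179 to 202 CPM in 4T1 WT, 189 to 255 CPM in Snord67KO-1 and 179 to 260 CPM in Snord67KO-2.

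In the ring of 7 Lsm proteins on U6, 3 genes had enough counts and 0 were called by edgeR or DESeq2 in any contrast. Lsm4 had 35.3, 93.9 and 11.2 CPM in 4T1 WT, 26.7, 46.8 and 16.0 CPM in Snord67KO-1 and 23.5, 19.0 and 16.5 CPM in Snord67KO-2. The WT libraries spread more than the groups differed, and 1 unmarked position held 52.4% of the counts of the gene. Its log2 fold change for the average was -1.08 ± 0.44 (SE, adjusted p = 0.111), and 0.0050 when each position was counted once per library (adjusted p = 0.999, with 0.00137 to 0.999 over all settings). Lsm4 was called for the average with the replicate block (adjusted p = 0.0404), without a low count filter and without 4T1 WT replicate 3. Among the other Lsm-named genes, Lsm14a (chr7:34344646-34393315, minus strand), a translational repressor of P-bodies rather than a spliceosomal protein, fell in Snord67KO-1. It had 70.5, 65.7 and 65.6 CPM in 4T1 WT, 35.6, 52.9 and 61.2 CPM in Snord67KO-1 and 56.5, 65.1 and 54.3 CPM in Snord67KO-2. In the fit, Lsm14a had a log2 fold change of -0.70 ± 0.23 (SE) in Snord67KO-1 (adjusted p = 0.0411) and -0.17 ± 0.25 in Snord67KO-2 (adjusted p = 0.793). The call in Snord67KO-1 was kept in 8 of 18 alternative settings (adjusted p 0.0165 to 0.255).

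The remaining roles held few tested genes. Prpf19, the ubiquitin ligase of the Prp19 complex, had 32.9 to 48.8 CPM in 4T1 WT, 37.9 to 43.0 CPM in Snord67KO-1 and 37.7 to 54.2 CPM in Snord67KO-2, with a log2 fold change of -0.03 ± 0.22 (SE) for the average (adjusted p = 0.948) and -0.71 with marked positions included (adjusted p = 0.0893). Prpf18, a factor of the second step, had 0.35 ± 0.37 (adjusted p = 0.577), the highest value of the 39, with 9.39 to 24.0 CPM in 4T1 WT and 14.1 to 28.2 CPM in the knockouts. Snrnp48 of the minor spliceosome, which removes rare introns, had 23.1, 17.2 and 14.4 CPM in 4T1 WT, 20.8, 10.2 and 21.8 CPM in Snord67KO-1 and 9.41, 0 and 4.73 CPM in Snord67KO-2. The 0 in the second Snord67KO-2 library allows up to 8.14 CPM. The Snord67KO-2 libraries lay below all others, with a log2 fold change against 4T1 WT of -2.13 ± 0.65 (adjusted p = 0.0732), against -0.29 ± 0.40 in Snord67KO-1 (adjusted p = 0.660). Compared directly, Snord67KO-2 minus Snord67KO-1 was -1.84 ± 0.67 (adjusted p = 0.106). This passed the threshold with each position counted once per library. The other members of the minor spliceosome, Snrnp25 and Snrnp35, had 10 and 20 counts and were not tested.

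Taken by library rather than by model, all 6 knockout libraries lay below all 3 WT libraries in CPM for 3 of the 39 genes (Snrnp200, Sf3b3 and Lsm14a), against 3.01% of all tested genes. They lay above for 0 of the 39, against 7.03%. In Snord67KO-1, 5 of the 39 lay below (all genes 8.3%) and 2 above (all genes 27.8%). In Snord67KO-2, 7 of the 39 lay below (all genes 10.4%) and 1 above (all genes 10.1%). CPM do not carry the correction for composition that the model does.

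The 5 genes called for the average had exons of 4525 to 7844 bases in sum (median 6745), and the 34 tested and not called had 861 to 7433 (median 1891.5). Of all 2254 tested genes with at least 4525 bases, 5.32% were called lower for the average, against 4.90% of 3162 shorter ones. Among the members of at least that length, Prpf19, Sf3a1 and Sf3b1 were not called and had log2 fold changes of -0.03, -0.42 and 0.32. Within the called genes, the counts were then split at the middle of the principal transcript. For Snrnp200, the 5′ segment held 25.7 ± 5.52 CPM in 4T1 WT, against 11.2 ± 0.928 CPM in Snord67KO-1 and 8.77 ± 5.76 CPM in Snord67KO-2 (SD, n = 3). The 3′ segment of Snrnp200 held 32.2 ± 16.2, 9.77 ± 2.32 and 22.1 ± 9.84 CPM in the same order. For Sf3b3, the 5′ segment held 47.8 ± 13.1, 16.3 ± 3.61 and 18.9 ± 0.0797 CPM. Of these, 18.2 ± 20.2, 1.85 ± 2.06 and 0.904 ± 1.57 CPM came from 1 unmarked position. In both segments of both genes the knockout means lay below the WT mean, and for the 3′ segment of Snrnp200 in Snord67KO-2 the difference was smaller than the SD of 4T1 WT. The 3′ segment of Sf3b3 held 45.6 ± 5.78, 32.4 ± 1.78 and 32.6 ± 8.47 CPM. In Prpf4b the 5′ segment held 121 ± 67.0 CPM in 4T1 WT, of which 84.8 ± 61.8 CPM came from 1 unmarked position. The 3′ segment held 8.43 ± 1.76 CPM in 4T1 WT, and there the Snord67KO-2 mean of 9.66 ± 4.35 CPM was above that of 4T1 WT. The segments were not tested.

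**Figure D4:**
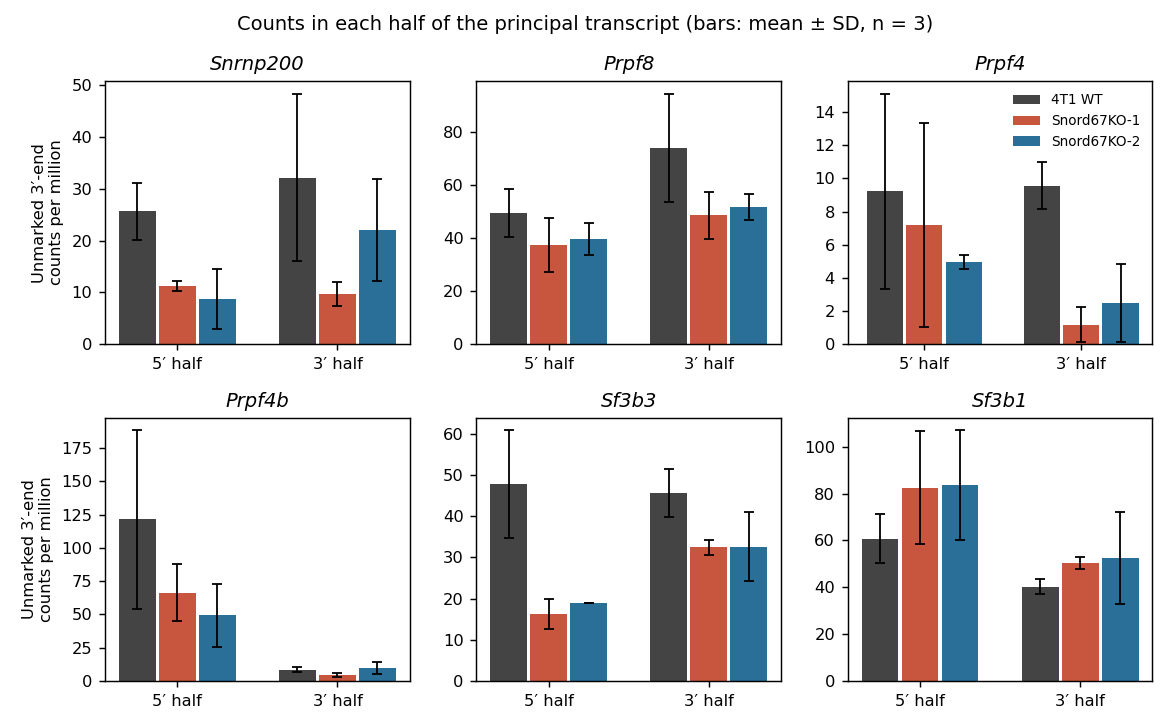
CPM of unmarked counts (y axis) in the 5′ and the 3′ segment of the principal transcript for the 5 genes called for the average of both clones and for Sf3b1, as bars of mean ± SD over 3 libraries. For Prpf4b the counts sit almost wholly in the 5′ segment, where 4T1 WT has 121 ± 67.0 CPM. Of this, 84.8 ± 61.8 CPM came from 1 unmarked position.

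Single positions were then examined, since protected ends at a modified base would stack at 1 position. The members had counts at 6160 unmarked positions, and 88.8% of these held 1 count over all 9 libraries. At marked positions they had 1908 counts over 221 positions. Only 7 member positions reached 10 counts in 3 libraries, and 6 of them were marked. The windows below, from GENCODE M21 transcripts on GRCm38, run 5′ to 3′ over 15 bases that end with the counted base and the 15 bases after it. They follow the spliced transcript, and those of Snrpa, Sf3b2 and Prpf4b cross an exon junction. The 6 bases after the counted base are in capitals. The first 4 are the marked positions in coding sequence among the 7 that reached 10 counts in 3 libraries. The last 4 are the unmarked positions with the most counts, shown because each holds 10.9% to 56.4% of the unmarked counts of its gene.
Snrpa, chr7:27193029, exon 3 of 7, coding, minus strand: gagctcaagaagtccCTGTATgccatcttc
Prpf19, chr19:10905126, exon 16 of 16, coding, plus strand: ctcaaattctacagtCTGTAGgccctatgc
Sf3b2, chr19:5283869, exon 14 of 21, coding, minus strand: tttccttaggaatgcCAGTAGgacctaatg
Sf3b1, chr1:54990505, exon 23 of 25, coding, minus strand: acagggtttgtacgaCTGTAGccatagcca
Prpf4b, chr13:34901402, exon 15 of 15, coding, plus strand: agagggagaaagttaCTGTCAtgagcacca
Lsm4, chr8:70677991, exon 4 of 5, coding, plus strand: gcctgagtgctacatCCGTGGcagcaccat
Sf3b3, chr8:110826153, exon 12 of 26, coding, minus strand: gactgactctggcttCTTGGGcaccactcc
Snrpb, chr2:130172929, intron, minus strand: gatgcgtctgtgtaaTTAAGCaggattact

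The sequences after the marked positions listed were alike. CTGTAG followed the counted base in Prpf19 and Sf3b1, and Snrpa and Sf3b2 differed from it at 1 of 6 bases each. Of the marked positions not listed, both in a 3′ UTR, that in Sf3b2 was followed by CTGTAG. That in Lsm11 matched 4 of the 6 letters. Over the whole table, on the transcript strand, CTG followed 79.9% of 29248 marked positions and 3.55% of 783798 unmarked ones that could be placed in a transcript. At positions with at least 5 counts the shares were 90.1% and 13.5%. CTGTAG, which overlaps CTG, followed 10.3% of the marked and 0.0240% of the unmarked positions. These letters were chosen after the sequences were seen. CTGTAG also begins the linker that the paper lists for ligation to the oxidized RNA. The listed primer for reverse transcription ends with the reverse complement of CTGTAG, and priming on the transcripts was not tested. Among the unmarked member positions, Prpf4b matched 4 of the 6 letters, Lsm4 4, Sf3b3 3 and Snrpb 1. The next bases of the linker, GCACCA, occur within the windows of Prpf4b, Lsm4 and Sf3b3. They do not occur in that of Snrpb or of the marked positions listed. The window of the marked Lsm11 position, which is not listed, holds them too. Those of the further unmarked positions in Snrpa, Lsm14a and Prpf6 do not. This comparison was made after the windows were seen and was not tested. All unmarked positions stayed in the gene totals.

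The marked position in Snrpa held 49, 292 and 17 counts in 4T1 WT, 26, 38 and 6 in Snord67KO-1 and 1, 4 and 15 in Snord67KO-2. Counts were highest in 4T1 WT replicate 2 (65.2% of all at this position), and the groups overlapped. The marked position in Prpf19 held 34, 126 and 12 counts in 4T1 WT, 28, 27 and 8 in Snord67KO-1 and 0, 5 and 14 in Snord67KO-2. It too was highest in 4T1 WT replicate 2, with 49.6% of its counts there. The Sf3b2 position in the list held 31, 84 and 13 counts in 4T1 WT, 19, 25 and 3 in Snord67KO-1 and 1, 4 and 15 in Snord67KO-2. A further marked position in Sf3b2, at chr19:5274049 in the 3′ UTR, held 18, 30 and 8 counts in 4T1 WT, 7, 12 and 2 in Snord67KO-1 and 0, 3 and 5 in Snord67KO-2. The Snord67KO-2 counts at the latter lay below all of 4T1 WT, from smaller libraries. The Sf3b1 position held 12, 47 and 2 counts in 4T1 WT, 7, 14 and 1 in Snord67KO-1 and 0, 0 and 1 in Snord67KO-2. The Lsm11 position, chr11:45932541 in the 3′ UTR, held 10, 19 and 5 counts in 4T1 WT, 13, 8 and 1 in Snord67KO-1 and 1, 1 and 4 in Snord67KO-2. At each of these the library with the highest CPM was 4T1 WT replicate 2. The unmarked position in Prpf4b held 45, 99 and 24 counts in 4T1 WT, 34, 29 and 4 in Snord67KO-1 and 0, 2 and 17 in Snord67KO-2. Its highest library was again 4T1 WT replicate 2. In Lsm4, 50 of 86 counts, and in Sf3b3, 26 of 40, came from 4T1 WT replicate 2. By library, marked positions took 11.3% to 45.5% of the member counts in 4T1 WT, 4.63% to 22.9% in Snord67KO-1 and 3.32% to 11.8% in Snord67KO-2, with 4T1 WT replicate 2 the highest.

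**Figure D5:**
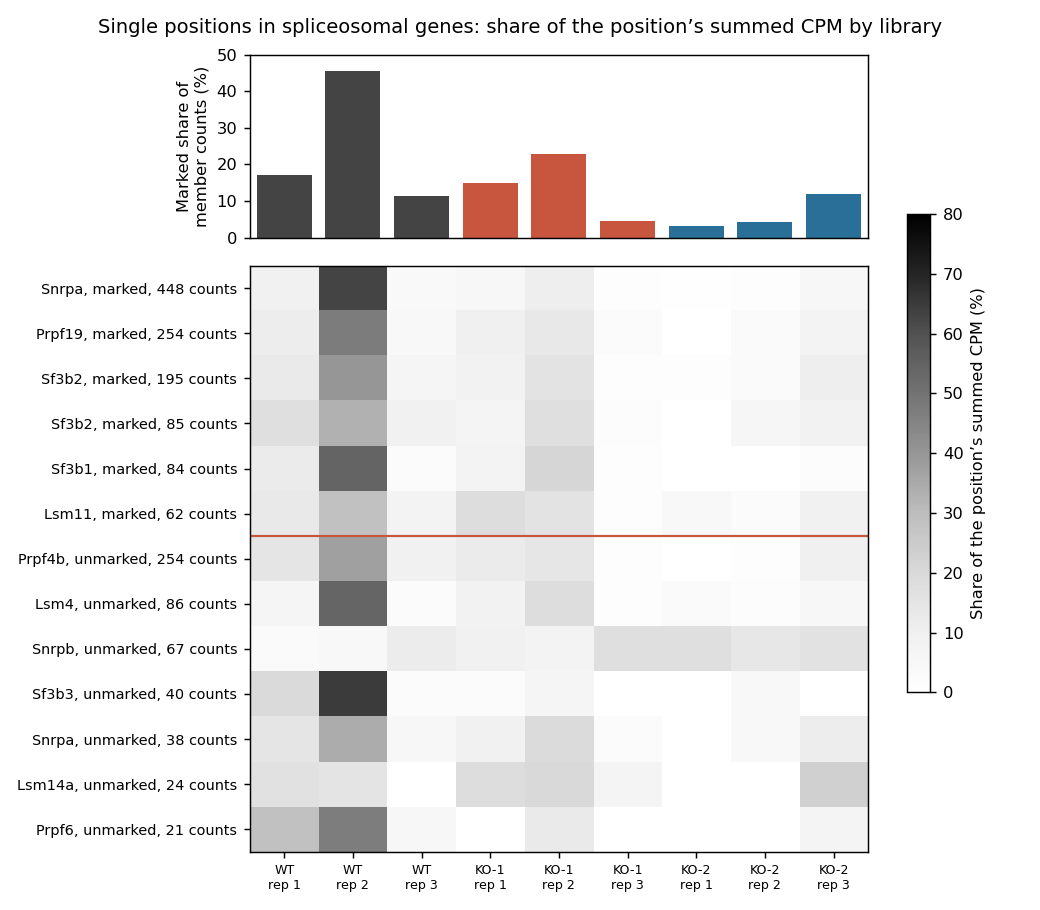
Top, percent of member counts at marked positions in each library (4T1 WT grey, Snord67KO-1 red, Snord67KO-2 blue). Bottom, for 13 positions in member genes, the percent of the summed CPM of the position that each library holds. Above the red line are the 6 marked positions with at least 10 counts in 3 libraries. Below it are the 7 unmarked positions with at least 20 counts in all. Of the marked positions, all 6 are darkest in 4T1 WT replicate 2, where marked positions took 45.5% of the member counts, while the Snrpb position is pale there.

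The Snrpb position was different. It lay in an intron between coding exons of the principal transcript and in an exon of a retained-intron transcript, and it held 67 counts, 27.3% of those of the gene. It held 3, 4 and 10 counts in 4T1 WT, 8, 5 and 16 in Snord67KO-1 and 5, 7 and 9 in Snord67KO-2. In CPM these were 8.78 ± 6.35, 15.1 ± 7.14 and 21.3 ± 2.27 (SD, n = 3). The Snord67KO-2 libraries lay above all of 4T1 WT, at counts too low for the position test. It was singled out after its values were seen.

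Relative to the rest of their gene, 6 member positions were tested among 2051 positions, and 0 were called in any contrast (0% of all tested positions). The seventh, in Lsm11, had under 50 counts on the rest of its gene. For the average, 3 of the 6 had a p under 0.05 before adjustment, in Snrpa, Sf3b1 and Prpf19, against 17.4% of all tested positions, and the lowest adjusted p by edgeR's quasi-likelihood test was 0.265. The log2 fold changes were -2.95 ± 0.89 (SE) in Snrpa, -3.14 ± 1.09 in Sf3b1 and -2.22 ± 0.86 in Prpf19, with -1.17 ± 0.83 in Prpf4b and -0.73 ± 0.60 and -0.72 ± 0.60 in Sf3b2. The positions in Snrpa, Sf3b1 and Prpf19 are marked, and 4T1 WT replicate 2 held 49.6% to 65.2% of their counts. A test of the counts alone also called 0 of the 6 in every contrast, where 0.0488% of all tested positions were called in each contrast against 4T1 WT, as higher. For the average it had 2 of the 6 with a p under 0.05 before adjustment, against 10.5% of all tested positions. DESeq2 was not run on positions.

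Of 74 other spliceosome genes, 47 were tested. For the average, 4 fell and 0 rose (all genes 12% called, as above), and the median log2 fold change was -0.28. The 4 were Usp39, a tri-snRNP protein needed for its joining the spliceosome, Luc7l2, a U1-associated protein, Strap, part of the machinery that assembles snRNPs, and Ddx46, the helicase Prp5 of U2. Their log2 fold changes were -1.41 ± 0.31 (SE, adjusted p = 0.00466), -0.91 ± 0.21 (adjusted p = 0.00766), -0.73 ± 0.20 (adjusted p = 0.0193) and -0.86 ± 0.24 (adjusted p = 0.0240). In Snord67KO-1 Usp39, Luc7l2 and Strap fell, and Sart3, which recycles U6, rose by 0.55 ± 0.19 (adjusted p = 0.0452). Of all tested genes, 20.2% were called in Snord67KO-1, 8.65% as lower and 11.6% as higher. The call of Sart3 was kept in 7 of 18 alternative settings (adjusted p 0.0213 to 0.269), and that of Ddx46 for the average in 10 of 17 (adjusted p 0.00236 to 0.114). In Snord67KO-2 edgeR called 0 of the 47, and 6 had a p under 0.05 before adjustment (all tested genes 18.2%). The median was -0.39 in Snord67KO-1 and -0.16 in Snord67KO-2.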

How the data were processed

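RibOxi-seq counts of 9 oxidized libraries of 4T1 cells were used (3 per genotype, described by the study as biologic replicates). The authors trimmed reads with cutadapt, merged pairs, aligned them with STAR and deposited raw counts of 3′ ends per genomic position, with gene, position and a mispriming mark. The labels name mm10 and the methods a later mouse build. Positions matched GRCm38. The methods give a STAR version for the mRNA-seq reads, whose index was also used here, and none for the mapping of these reads. The table has no strand column.

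Unmarked counts were summed per gene. Genes that reached 10 counts in 3 or more libraries were tested in 1 fit of all 9 libraries with edgeR's quasi-likelihood test (edgeR 4.0.16, R 4.3.3, TMM scaling) and Benjamini-Hochberg adjustment over all tested genes, with a threshold of 0.05. CPM values are per library total, without TMM. Single positions were tested in the same way with the log of the other counts of the gene as an offset, where these reached 50. P-values measure the spread between these libraries and not that between clones, also for the average of both clones.

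The members and lists were chosen with earlier results of these data known. Named were the members called in any contrast, the member of each role with the highest mean CPM, the 3 tested members with the highest and the 3 with the lowest log2 fold change for the average, the member positions that passed the filter, and the called genes among other spliceosome genes (up to 5 per contrast and direction), with exceptions stated. Values of some genes that the rule or lists hold are not reported here. Alternatives were DESeq2 1.42.0, other filters and scalings, marked positions included, a replicate block and each library left out. The tests were tested on simulated data. Numbers shared by replicates did not pair the libraries.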

Additional observations from a re-analysis of the deposited data

Results flagged for a closer look

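The gene total of Snrnp70, whose protein binds the first stem loop of U1, differed between the knockout clones, and this difference was itself tested. Against 4T1 WT, both knockout means were higher in the 5′ segment and lower outside the principal transcript. The log2 fold change of Snord67KO-2 minus Snord67KO-1 was 0.99 ± 0.27 (SE, adjusted p = 0.0340, edgeR's quasi-likelihood test), with all 3 Snord67KO-2 libraries above all 3 Snord67KO-1 libraries. The call was lost in 7 of 18 alternative settings, among them DESeq2 and the removal of any 1 library of Snord67KO-2. No explanation was tested. Groups of 3 libraries are too small for the search for single outlying libraries.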

How the results depend on the processing

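For the average of both clones, 5 members were called, against 3 with DESeq2 and 2 to 5 with 1 library left out. Without 4T1 WT replicate 2 these were Sf3b3 and Snrnp200, and 3 were called without 4T1 WT replicate 1, Snord67KO-1 replicate 3 or Snord67KO-2 replicate 3. In Snord67KO-1, 7 became 2 without TMM, 3 with DESeq2 and 3 to 7 with 1 library left out (4 without 4T1 WT replicate 1, 3 without Snord67KO-1 replicate 1 or 3). In Snord67KO-2, 1 became 0 without TMM, with DESeq2, with at least 5 counts, with marked positions included and with the compared groups alone, 4 without a low count filter (Lsm4, Prpf4b, Prpf6 and Snrnp48), 2 with each position counted once per library (Snrnp200 and Snrnp48), in both cases without Sf3b3, and 0 to 3 with 1 library left out. Sf3b3 was also lost there without 4T1 WT replicate 1 or 2 or any Snord67KO-2 replicate, and 3 were called without 4T1 WT replicate 3. Between the clones, 1 became 0 with DESeq2, 3 with each position counted once, and 0 to 2 with 1 library left out. Without TMM the 1 call was Prpf6, as lower, in place of Snrnp70. Snrnp70 was also lost without Snord67KO-1 replicate 1 or 3 or any Snord67KO-2 replicate. Counting each position once was chosen after seeing the data. The cause was not tested. Over all genes, DESeq2 called 313, 571, 110 and 128 genes for the average, Snord67KO-1, Snord67KO-2 and the clone difference, against 690, 1163, 229 and 367, and without TMM the counts were 463, 996, 109 and 408. With each position counted once they were 386 in Snord67KO-2 and 681 between the clones. Without TMM the median of all genes moved from -0.02 to 0.18 in Snord67KO-1, from -0.02 to -0.14 in Snord67KO-2 and from -0.01 to -0.33 between the clones, and the lower share of called genes moved from 42.7% to 20.3% in Snord67KO-1 and from 55.6% to 87.5% between the clones.

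The replicate block gave 6, 7, 1 and 1 called members and 0 positions, the sixth for the average being Lsm4. Same-numbered libraries had correlations of -0.112 to 0.225, and 4 of 9 libraries correlated best with their own number, so the numbers were not taken as pairs. The summed level of the members was 2433 CPM in 4T1 WT, 2151 CPM in Snord67KO-1 and 2123 CPM in Snord67KO-2 over unmarked counts outside Rn45s. With marked positions it was 2344 ± 834 CPM (SD, n = 3) in 4T1 WT, 1808 ± 68.5 CPM in Snord67KO-1 and 1560 ± 225 CPM in Snord67KO-2. With 1 library left out it ran from 1604 to 1781 CPM in 4T1 WT, 1497 to 1609 CPM in Snord67KO-1 and 1375 to 1492 CPM in Snord67KO-2. The log2 fold change of Lsm4 was 0.0050 with each position counted once, and that of Prpf19 was -0.71 with marked positions, 0.020 without TMM and -0.215 to 0.054 with 1 library left out. Counts of single genes are low, with a median of 106.0 over 9 libraries, which limits the smaller changes that could be seen.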

Other observations

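In Sf3a3 and Lsm1 most unmarked counts lay in an intron. Sf3a3 had 123 of its 221 counts (55.7%) at 56 positions within chr4:124720994-124721570 (GRCm38), in the intron after exon 6 of 17, with at most 10 counts at a position. This stretch held 19.2 ± 6.10 CPM in 4T1 WT, 32.8 ± 3.51 CPM in Snord67KO-1 and 22.4 ± 7.20 CPM in Snord67KO-2 (SD, n = 3), and the rest of the gene held 16.8 ± 3.97, 21.8 ± 13.4 and 24.6 ± 12.9 CPM. Lsm1, of the cytoplasmic Lsm ring that acts in mRNA decay, had 104 of its 182 counts (57.1%) at 42 positions within chr8:25788844-25789267, in the intron after exon 1 of 4. These held 19.7 ± 6.11 CPM in 4T1 WT, 19.1 ± 3.70 CPM in Snord67KO-1 and 28.1 ± 12.8 CPM in Snord67KO-2. Both stretches were chosen after their values were seen and were not tested. Of the 5 annotated snoRNA genes inside members, Snord111 in Sf3b3 had 10 counts, Gm25970 in Prpf39 had 5, and the other 3 had 0.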
